A study of Mus musculus with 12 samples.

Results

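The B-lineage transcription factors described here are 10 genes, namely Pax5, Ebf1, Tcf3, Ikzf1, Ikzf3, Spib, Irf4, Irf8, Bach2 and Bcl6. They were chosen as known B-lineage factors, by symbol and with no cut on a measured value, though with earlier results of these data known, from the 24982 gene symbols listed for every library, and all 10 were found. RNA with poly(A) tails was sequenced from B cells taken from the spleens of mice that were 6 weeks old. There were 12 libraries, 4 in each of 3 groups, labelled as biological replicates: wild-type C57BL/J6 mice (WT), Eμ-Myc transgenic mice, and Eμ-Myc; PRPS2 KO mice, called the knockout group below. The transgene places Myc under the immunoglobulin heavy-chain enhancer, which is active in B-lineage cells, and both the second and the third group carry it. PRPS2 is an isoform of phosphoribosyl pyrophosphate synthetase, an enzyme of nucleotide synthesis. The labels do not say in which cells Prps2 was deleted, which strain the transgenic mice had, or whether animals were pooled. The deposited value of a gene is its mean coverage, and each library was divided by 1 scaling factor to give the scaled coverage used throughout.

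B-cell identity is built in steps by transcription factors that act on each other. Tcf3 encodes the E2A proteins (E12 and E47), which with Ebf1 open the programme in lymphoid progenitors, and Pax5 then commits the cells to the B lineage and represses genes of other lineages. Ikaros (Ikzf1) and Aiolos (Ikzf3) are zinc-finger paralogs, Spi-B is an ETS-family factor, and Irf4 and Irf8 are interferon regulatory factors that bind together with ETS factors. Bach2 and Bcl6 are repressors that hold back plasma cell differentiation, and Bcl6 is the master regulator of the germinal centre. Several of the 10 also work in other cells: Irf8 in dendritic cells and monocytes, Bcl6 in follicular helper T cells and in myeloid cells, Ikzf1 and Tcf3 across lymphocytes.

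The labels were checked first. The WT, Eμ-Myc and knockout means were 125, 246 and 17.1 for Prps2 and 272, 1915 and 2279 for Myc. Deposited coverage added up to between 1277305.5 and 1885768.9 in a library. A set of 5 B-cell genes, Cd79a, Cd79b, Ms4a1 and Cd22 among them, was present in every library, the lowest value being 399 for Ms4a1 in knockout library 3. WT libraries 1 and 4 stood apart from WT libraries 2 and 3 in cell markers. Ms4a1, the gene of CD20, was at 463 and 438 in the former pair and at 1023 and 850.3 in the latter. The summed scaled coverage of 15 T-cell markers was 1510 and 4762 against 765 and 1006, and that of 15 myeloid markers was 30223 and 16467 against 9665 and 9698. Knockout libraries 3 and 4 stood apart from knockout libraries 1 and 2. Across 12956 genes their log2 profiles correlated with each other at r = 0.995, and with those of libraries 1 and 2 at r from 0.884 to 0.918. Their T-cell marker sums were 42.3 and 37.8 against 947 and 1119, and their Myc values were 3017 and 3282 against 1099 and 1718. Over all groups the T-cell sum ran from 765 to 4762 (WT), 159.9 to 229 (Eμ-Myc) and 37.8 to 1119 (knockout), and the myeloid sum from 9665 to 30223, 6435 to 19033 and 1642 to 18164. No gene of either list was at 0 in all libraries of a group. Since these are bulk samples, fewer cells of a type and less RNA per cell cannot be told apart.

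In Eμ-Myc against WT, Tcf3 rose and Bcl6 and Irf8 fell, while the other 7 factors did not pass the test. That makes 3 of 10 factors called, 1 higher and 2 lower, at a limma adjusted p under 0.05, where 55.1% of all 12723 genes tested were called (30.4% higher and 24.7% lower). The share among the factors lies below that background. The median log2 fold change of the 10 factors was -0.15 and that of all genes tested -0.01. The 4 libraries of one group lay wholly above those of the other for Tcf3, Ikzf1 and Bcl6, and this held for 51.4% of all genes tested. Between the knockout and Eμ-Myc groups no factor of the 10 was called by limma, and none had an unadjusted p under 0.05. Of 12551 genes tested in that comparison, 0.00797% were called and 0.964% had an unadjusted p under 0.05. The libraries of the 2 groups overlapped for every factor, while 1.53% of all genes had no overlap. With estimated library quality weights, which gave knockout libraries 3 and 4 weights of 3.20 and 7.76 and libraries 1 and 2 weights of 0.0817 and 0.129, 5 of the factors were called, namely Tcf3, Ikzf1, Spib, Irf8 and Bcl6, while 59.4% of all genes were called under the same weights. Without knockout libraries 3 and 4, 4.21% of all genes were called. Against WT, the knockout group had Tcf3 as its only called factor, where 29.3% of 12692 genes were called (19.7% higher and 9.60% lower). That share rests on single libraries: it was 7.05%, 4.85% and 4.78% without WT library 1, 2 or 3, 1256 of 12550 genes without WT library 4, 53.2% without knockout library 1, and 5.62% and 5.11% without knockout library 3 or 4. Its libraries lay wholly apart from WT for Tcf3 and Bcl6, that is for 2 of 10 factors against 37.1% of all genes. Both comparisons with WT use the same 4 WT libraries.

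**Figure D1:**
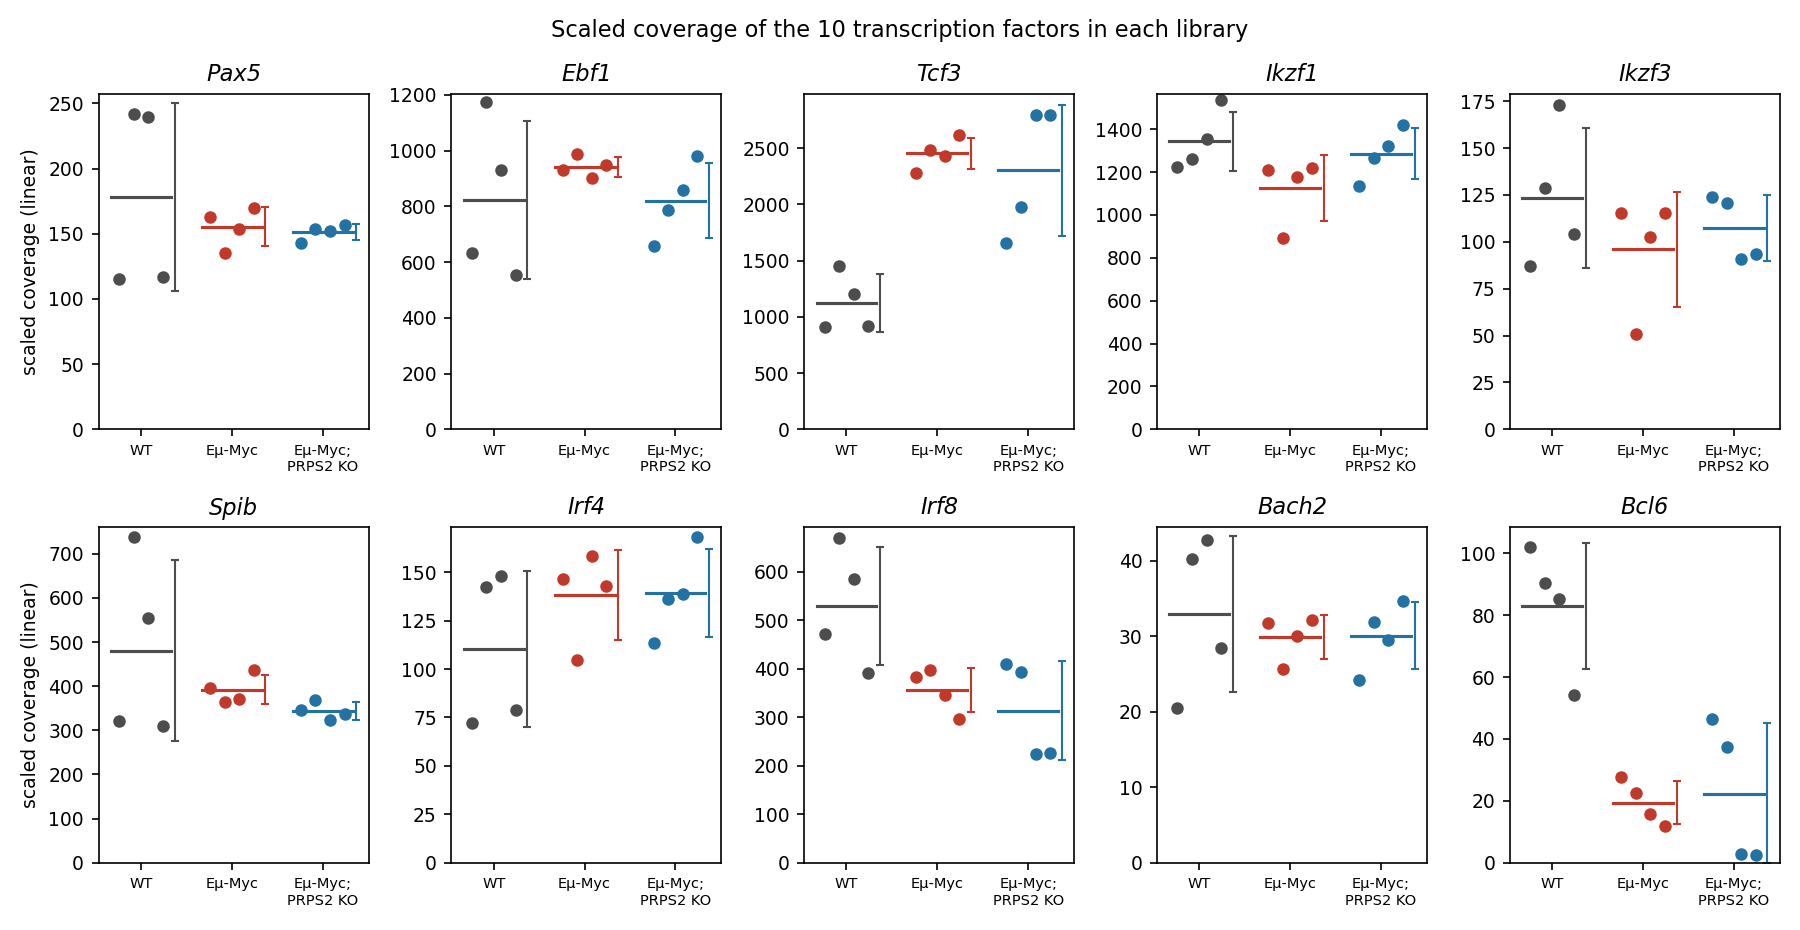
Scaled coverage (linear axes from 0) of each of the 10 transcription factors in WT, Eμ-Myc and Eμ-Myc; PRPS2 KO. Points are libraries 1 to 4 from left to right, horizontal lines are group means and vertical bars are 1 SD (n = 4), cut at 0 for Bcl6 in the knockout group. Tcf3 in Eμ-Myc lies above every WT library and Bcl6 below, and knockout libraries 3 and 4 hold the lowest Bcl6 values, 2.89 and 2.44.

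**Figure D2:**
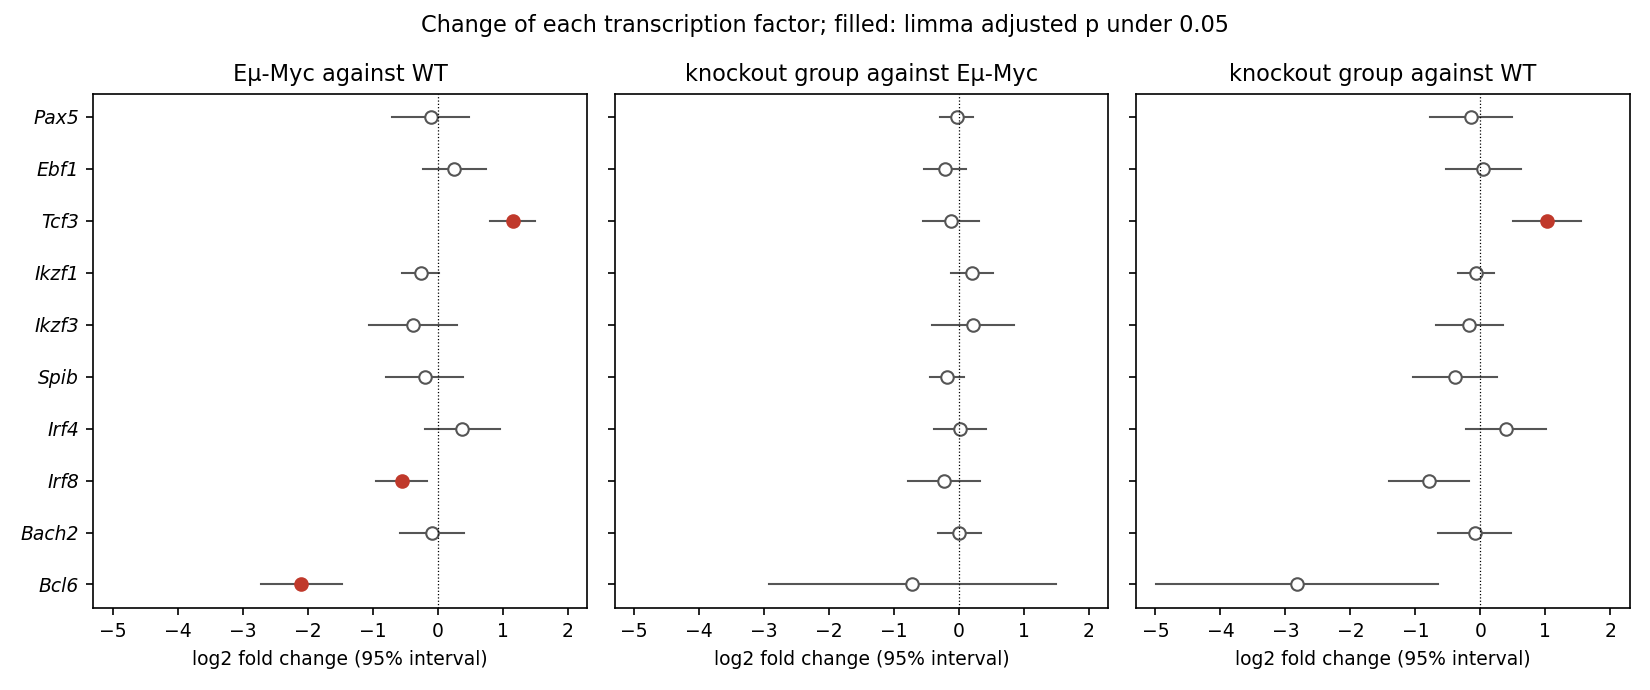
log2 fold change of each factor (points) with its 95% interval (lines) from limma in the 3 comparisons. Filled points passed an adjusted p under 0.05: Tcf3, Irf8 and Bcl6 in the left panel, none in the middle panel and Tcf3 in the right panel. The intervals of Bcl6 are the widest in the knockout comparisons.

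The factors that start the B-cell programme are taken first. Tcf3 (chr10:80409514-80433647, minus strand, GRCm38) gave a scaled coverage of 910.3, 1449, 1204 and 920.3 in WT libraries 1 to 4. In Eμ-Myc libraries 1 to 4 it gave 2279.65, 2485, 2426 and 2616, so that every Eμ-Myc library lay above every WT library. The mean rose 2.19-fold, from 1121 ± 257 to 2452 ± 139 (SD, n = 4), a difference of 1.16 on the log2 scale (SE 0.15, adjusted p 2.21e-04 by limma). This increase was called under each of the alternatives run, with log2 fold changes from 0.89 to 1.35. The knockout libraries gave Tcf3 values of 1653, 1973, 2796 and 2791, with libraries 1 and 2 between WT and Eμ-Myc and libraries 3 and 4 above every Eμ-Myc library. Against Eμ-Myc the log2 fold change was -0.12 (95% interval -0.55 to 0.30, limma adjusted p 1.00), and with library quality weights it turned to 0.17 and was called (adjusted p 0.0432). Against WT it was 1.03 (SE 0.23, limma adjusted p 0.0222), with no overlap between the groups. This last call depended on single libraries: the adjusted p was 0.0612, 0.0606 and 0.0545 without WT library 1, 3 or 4, and 0.0645 and 0.0670 without knockout library 3 or 4. The log2 fold change stayed between 0.93 and 1.18 with any 1 library left out, while the share of all genes called in the settings that lost the call ran from 4.78% (without WT library 3) to 1256 of 12550 genes (without WT library 4), against 29.3%. Without both knockout libraries 3 and 4 the log2 fold change was 0.72 (adjusted p 0.0801), and without WT libraries 1 and 4 it was 0.77 (adjusted p 0.144). Tcf7l1, a different gene that was once also called Tcf3, has a row of its own in the files.

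Ebf1 (chr11:44617317-45008091, plus strand) gave 634, 1174, 931 and 555 in WT and a narrow 929, 989, 901 and 950.3 in Eμ-Myc. The Eμ-Myc libraries lay inside the WT range, and the log2 fold change was 0.26 (95% interval -0.23 to 0.74, limma adjusted p 0.329). The knockout libraries gave Ebf1 values of 658, 788, 859 and 979.6, with a log2 fold change of -0.21 against Eμ-Myc (adjusted p 1.00) and 0.05 against WT (adjusted p 0.888). Pax5 (chr4:44524757-44710487, minus strand) gave 115, 242, 239.9 and 117 in WT. It gave 163, 135, 154 and 169.8 in Eμ-Myc and 143, 153, 152 and 157 in the knockout group. WT thus held both the highest and the lowest Pax5 values of the series, in the same pairs of libraries that differed in Ms4a1. Pax5 had log2 fold changes of -0.11 in Eμ-Myc against WT (95% interval -0.70 to 0.49), -0.03 in the knockout group against Eμ-Myc (-0.29 to 0.22) and -0.14 against WT (-0.78 to 0.49), none called. The second of these intervals was the narrowest of the 10 factors in the 3 comparisons. An opposite-strand transcript, 5730488B01Rik, shares 636 exonic bases with Pax5 and was at or below 1.7 in deposited coverage in all libraries.

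The Ikaros paralogs were lower on average in Eμ-Myc than in WT without passing the test. Ikzf1 (chr11:11685003-11772926, plus strand) gave 1224, 1263, 1352 and 1535 in WT and 1208.5, 894, 1177 and 1218 in Eμ-Myc. The groups did not overlap, by the narrow margin between 1218 and 1224, and the log2 fold change was -0.26 (SE 0.13, limma adjusted p 0.108). Scaling by total coverage, which shifted the median of all genes by -0.18, moved it to -0.45 with a limma adjusted p of 0.0283. The knockout values of Ikzf1 were 1137, 1265, 1322 and 1419, with log2 fold changes of 0.20 against Eμ-Myc (95% interval -0.12 to 0.52) and -0.06 against WT (-0.34 to 0.21). Ikzf3 (chr11:98464902-98546031, minus strand) gave 87.2, 129, 173 and 104 in WT, and 116, 50.9, 103 and 115 in Eμ-Myc. Its lowest value of the series was in Eμ-Myc library 2, the library that also held the lowest Ikzf1. The log2 fold change of Ikzf3 was -0.38 (95% interval -1.06 to 0.29, limma adjusted p 0.298). Its knockout values were 124, 121, 90.6 and 93.4, with log2 fold changes of 0.21 against Eμ-Myc and -0.17 against WT (adjusted p 1.00 and 0.553).

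Among the ETS and interferon regulatory factors, Irf8 fell in Eμ-Myc and Spib and Irf4 did not pass. Irf8 (chr8:120736358-120756694, plus strand) gave 472, 669, 585 and 391.7 in WT, and 382, 398, 345 and 295 in Eμ-Myc. The groups overlapped through WT library 4 alone, and the mean was 1.49-fold lower, at 355 ± 45.5 against 529 ± 122 (SD, n = 4). On the log2 scale the difference was -0.55 (SE 0.17, adjusted p 0.0219 by limma). Leaving out WT library 2 or 3, or Eμ-Myc library 3 or 4, ended the call, at adjusted p of 0.0546, 0.0586, 0.0530 and 0.0646 and log2 fold changes of -0.43, -0.50, -0.54 and -0.47. A single fit of all 12 libraries gave a limma adjusted p of 0.0748. With libraries scaled to the 5 B-cell genes the limma adjusted p was 0.308, at a log2 fold change of -0.36. That scaling, chosen after seeing the data, shifted the median of all genes by 0.19. Under it 7.39% of all genes were called lower, against 24.7%. Knockout libraries 1 to 4 had Irf8 at 409, 393, 224 and 227, so that libraries 3 and 4 held the lowest values of the series. The log2 fold change against Eμ-Myc was -0.23 (95% interval -0.78 to 0.32, limma adjusted p 1.00), 0.18 without knockout libraries 3 and 4, and -0.56 (adjusted p 0.00196) with library quality weights. Against WT it was -0.79 (SE 0.27, limma adjusted p 0.0558), just short of the threshold. It passed under 6 of 20 alternatives: without knockout library 1 (-0.93, adjusted p 0.0234) or library 2 (-0.91, adjusted p 0.0451), with median-of-ratios scaling (adjusted p 0.0487), all 12 libraries fitted together (0.0209), a minimum of 10 in each library (0.0444) and library quality weights (-1.34, adjusted p 8.64e-06). It was -0.37 (adjusted p 0.319) without libraries 3 and 4. The summed coverage of 11 dendritic-cell markers ran from 448 to 518 in WT and from 317 to 439.97 in Eμ-Myc. In knockout libraries 1 to 4 it was 503, 421, 275 and 253, higher in the pair with more Irf8; its part in the Irf8 values was not tested.

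Irf4 (chr13:30749226-30766976, plus strand) gave 72.3, 143, 148 and 78.7 in WT. It gave 147, 105, 158 and 143 in Eμ-Myc, and 113, 136, 139 and 168 in the knockout group. For Eμ-Myc against WT the log2 fold change was 0.38 (95% interval -0.20 to 0.96, limma adjusted p 0.229). The knockout group differed by 0.01 from Eμ-Myc and by 0.40 from WT, neither called. Without WT libraries 1 and 4 the value for Eμ-Myc against WT turned to -0.09 (adjusted p 0.688). Spib (chr7:44525993-44532071, minus strand) gave 321, 738, 555 and 309.9 in WT, 397, 364, 371 and 437 in Eμ-Myc, and 347, 369.8, 323 and 336 in the knockout group. Its WT libraries 1 and 4 lay below all Eμ-Myc libraries and its WT libraries 2 and 3 above them. Spib had log2 fold changes of -0.20 (95% interval -0.80 to 0.40) in Eμ-Myc against WT, -0.19 (-0.45 to 0.07) for knockout against Eμ-Myc and -0.39 (-1.03 to 0.25) for knockout against WT, with limma adjusted p of 0.541, 1.00 and 0.275.

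Of the repressors Bach2 and Bcl6, Bcl6 was called lower in Eμ-Myc against WT and Bach2 was called in no comparison. Bach2 (chr4:32238804-32586108, plus strand) was the lowest of the 10 factors in WT, at 20.6, 40.2, 42.7 and 28.5. It gave 31.8, 25.7, 29.99 and 32.2 in Eμ-Myc and 24.3, 31.9, 29.5 and 34.7 in the knockout group. Its log2 fold changes were -0.09 (95% interval -0.58 to 0.40), 0.00 (-0.33 to 0.33) and -0.09 (-0.65 to 0.48) in Eμ-Myc against WT, the knockout group against Eμ-Myc and the knockout group against WT, none called by limma. The opposite-strand gene Bach2os shares 537 exonic bases with Bach2 and was at or below 0.5 in deposited coverage.

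Bcl6 (chr16:23965052-23988852, minus strand) gave 102, 90.4, 85.3 and 54.2 in WT libraries 1 to 4. In Eμ-Myc it gave 27.6, 22.4, 15.7 and 11.9, each below the lowest WT library. The mean was 4.27-fold lower, at 19.4 ± 6.97 against 82.9 ± 20.3 (SD, n = 4), the largest change among the 10 factors in this comparison. On the log2 scale it fell by 2.10 (SE 0.28, adjusted p 2.43e-04 by limma). It stayed called under the alternatives except all 12 libraries in one fit, where the same -2.10 had an adjusted p of 0.0568. Scaled to the 5 B-cell genes, the log2 fold change was -1.91 (adjusted p 1.3e-04).

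Knockout libraries 1 and 2 had Bcl6 at 46.3 and 37.3, above every Eμ-Myc library, and libraries 3 and 4 had it at 2.89 and 2.44, below every Eμ-Myc library. The group mean of 22.2 ± 22.9 (SD, n = 4) therefore describes none of its libraries. Against Eμ-Myc the log2 fold change was -0.72 (95% interval -2.93 to 1.49, limma adjusted p 1.00). Without knockout libraries 3 and 4 it was 1.15 (adjusted p 0.0623), and with library quality weights, which count those libraries most, it was -2.36 (adjusted p 0.00140). Against WT it was -2.82 (SE 0.95, limma adjusted p 0.0541), with no overlap between the groups. It passed under 5 of 19 alternatives: without knockout library 1 (-3.49, adjusted p 0.0151) or library 2 (-3.39, adjusted p 0.0374), with a pseudocount of 2 (-2.54, adjusted p 0.0485), with all 12 libraries fitted together (adjusted p 0.0185) and with library quality weights (-4.74, adjusted p 2.96e-06). Without knockout libraries 3 and 4 it was -0.95 (adjusted p 0.0610), and without WT libraries 1 and 4 it was -2.94 (adjusted p 0.197).

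Bcl6 is also transcribed in T cells and myeloid cells, so the marker sums are given beside it. Among the WT libraries, library 1 had the highest myeloid sum, 30223, and the highest Bcl6, 102, while library 4 had the highest T-cell sum, 4762, and the lowest Bcl6, 54.2. Within Eμ-Myc, libraries 1 and 2 had more Bcl6 than libraries 3 and 4, more myeloid signal (11648 and 19033 against 7817 and 6435) and more NK-cell signal (268 and 301 against 151 and 121). The T-cell sums of Eμ-Myc libraries 1 to 4 were 229, 191, 225 and 159.9, and did not split into the same pairs. Within the knockout group the pair with more Bcl6 was also the pair with more T-cell, NK-cell and myeloid signal. Its NK-cell sums were 729 and 556 in libraries 1 and 2 and 31.1 and 28.6 in libraries 3 and 4, and its myeloid sums were 18164 and 13383 against 3366 and 1642. Between groups, the T-cell sums of Eμ-Myc (159.9 to 229) lay wholly below those of WT (765 to 4762), as Bcl6 did. So did its NK-cell sums (121 to 301 against 447 to 1801). The myeloid sums of the groups overlapped, but S100a9 and S100a8 weigh most in them, with WT means of 7467 and 3051. Taken singly, 13 of 15 myeloid markers had log2 fold changes below 0 in Eμ-Myc against WT, and 1 was called. The part of these cell types in the Bcl6 values was not tested, neither within the groups nor in the comparisons with WT.

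**Figure D3:**
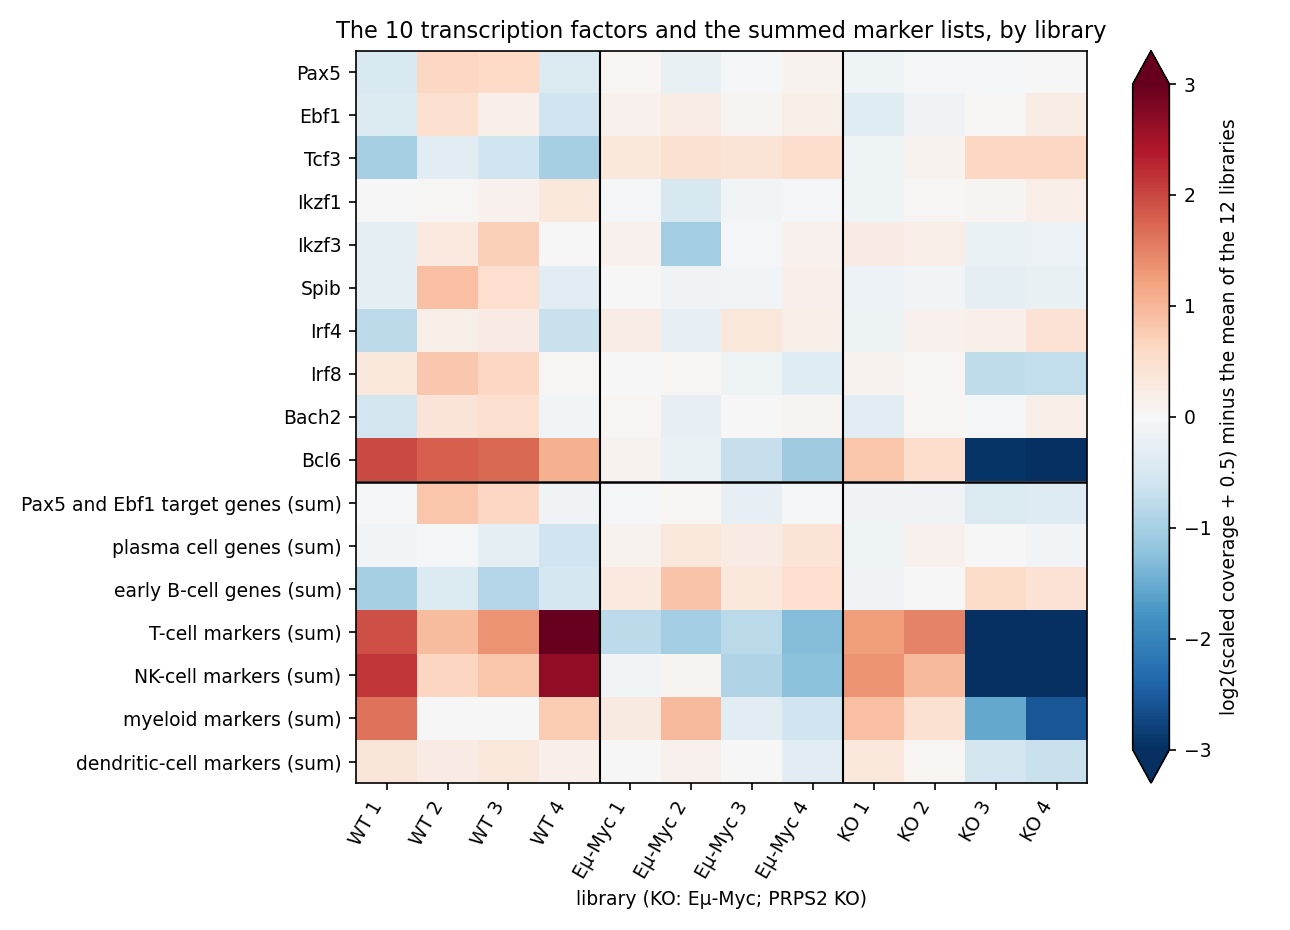
Deviation of each of the 10 factors (above the line) and of the summed marker lists (below) from its own mean over the 12 libraries, as log2(scaled coverage + 0.5), colours limited to -3 and 3. Columns are libraries, with KO for Eμ-Myc; PRPS2 KO. Knockout libraries 3 and 4 are low in Bcl6, Irf8 and the T-cell, NK-cell and myeloid sums, and WT libraries 1 and 4 are lower than WT libraries 2 and 3 in Pax5, Ebf1, Spib, Irf4 and Bach2.

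The sequences upstream of the 3 factors called in Eμ-Myc against WT are shown because Myc with its partner Max binds the E-box CACGTG, and E2A proteins bind E-boxes such as CAGGTG. They are the 250 bases before the start annotated in RefSeq (GRCm38.p6), 5′ to 3′ on the gene's strand, with any CACGTG or CAGGTG on either strand in capitals. The windows are chr16:23988853-23989102 (minus strand) for Bcl6, chr10:80433636-80433885 (minus strand) for Tcf3 and chr8:120736108-120736357 (plus strand) for Irf8.
Bcl6: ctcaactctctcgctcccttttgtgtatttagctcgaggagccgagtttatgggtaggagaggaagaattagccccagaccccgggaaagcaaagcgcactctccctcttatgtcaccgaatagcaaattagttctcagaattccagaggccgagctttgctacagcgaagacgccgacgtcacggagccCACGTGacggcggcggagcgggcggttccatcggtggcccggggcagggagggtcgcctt
Tcf3: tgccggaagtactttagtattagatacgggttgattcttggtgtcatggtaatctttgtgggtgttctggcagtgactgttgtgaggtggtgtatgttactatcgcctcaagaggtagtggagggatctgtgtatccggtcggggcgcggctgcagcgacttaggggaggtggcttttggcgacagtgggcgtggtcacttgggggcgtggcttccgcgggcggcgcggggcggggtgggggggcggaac
Irf8: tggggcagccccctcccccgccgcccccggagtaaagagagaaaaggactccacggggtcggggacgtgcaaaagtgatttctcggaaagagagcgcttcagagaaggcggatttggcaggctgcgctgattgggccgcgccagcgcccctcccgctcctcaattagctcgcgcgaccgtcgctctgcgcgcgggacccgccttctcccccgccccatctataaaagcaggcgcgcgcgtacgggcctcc
Bcl6 holds 1 CACGTG, which begins 60 bases before the start, and the windows of Tcf3 and Irf8 hold neither motif. The promoter table held 9 of the 10 factors, in 13 windows of 250 bases. CACGTG was found in the window of Bcl6 only, and in 6.02% of all 32851 windows. CAGGTG was found in a second Irf8 window (chr8:120738389-120738638) only, and in 17.2% of all windows. Other motifs searched on both strands were TGGGAA, the core bound by Ikaros, found in the second Irf8 window and a second Ebf1 window and in 21.6% of all windows. TTCCTNGAA, of the kind Bcl6 binds, was found in a second Bcl6 window (chr16:23981284-23981533) and in 1.31% of all windows. An Ebf1 consensus was found in no window of the factors and in 0.779% of all windows. A match describes letters in these windows and is not evidence of binding.

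The order of the factors by level was read on scaled coverage, which by its name is a depth per base; how the authors computed it is not stated. In WT the order from high to low was Ikzf1 (1344), Tcf3 (1121), Ebf1 (823), Irf8 (529), Spib (481), Pax5 (178), Ikzf3 (123), Irf4 (110.4), Bcl6 (82.9) and Bach2 (33.01). Neighbours in this order overlapped between libraries, except Spib above Pax5 and Bcl6 above Bach2. In Eμ-Myc Tcf3 came first with 2452, clear of Ikzf1 with 1124, and Bcl6 came last with 19.4, overlapping Bach2 with 29.9. Tcf3 also came first in the knockout group, with 2303 and clear of Ikzf1 with 1286, and Bcl6 had the lowest mean, 22.2. Bcl6 overlapped Bach2 there: in knockout libraries 1 and 2 Bcl6 was at 46.3 and 37.3 and Bach2 at 24.3 and 31.9. Between the ends the order in the knockout group was that of Eμ-Myc: Ikzf1, Ebf1, Spib, Irf8, Pax5, Irf4, Ikzf3 and Bach2.

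Spread within groups was itself uneven. The coefficient of variation (SD as a percent of the mean) was larger in WT than in Eμ-Myc for 7 of the 10 factors. It was 40.4% against 9.72% for Pax5, 42.7% against 8.49% for Spib and 34.5% against 3.93% for Ebf1. For 8 of the 10 factors WT libraries 2 and 3 both lay above WT libraries 1 and 4, the exceptions being Ikzf1 and Bcl6. No share over all genes is given for either of these counts, so neither is a result about the factors in particular. The summed coverage of 14 Pax5 and Ebf1 target genes split in the same way, at 20122 and 17387 against 10801 and 10620. With WT libraries 1 and 4 left out, a setting added once the values were known, 6 of the 10 factors were called in Eμ-Myc against WT, and 5 of them were lower, where 50.7% of all genes were called and 21.3% were lower. Pax5 then had a log2 fold change of -0.63, Spib -0.71, Bach2 -0.47, Irf8 -0.82, Bcl6 -2.22 and Tcf3 0.89. The libraries left out are those in which 8 of the factors were lowest in WT, so the setting raises the WT means of these same genes, and its p-values are not given as support. Ebf1 and Irf4 turned to -0.15 and -0.09 in that setting and were not called. With all libraries scaled to the 5 B-cell genes instead, Pax5 and Bach2 had log2 fold changes of 0.08 and 0.10. Tcf3 and Bcl6 alone were called, where 30.3% of all genes were called (22.9% higher and 7.39% lower). That scaling moves the median of all genes by 0.19, and Cd22, one of its 5 genes, itself fell in Eμ-Myc (log2 fold change -0.94, limma adjusted p 0.00534). With 1 library left out, Pax5 ran from -0.29 to 0.07 and Bach2 from -0.29 to 0.05 in Eμ-Myc against WT. Their direction in this comparison therefore depended on single libraries. The turn under the B-cell scaling is no result about these genes, since all genes shifted with it.

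Ratios of 2 factors inside a library do not depend on the scaling, and 4 pairs were compared in the 3 comparisons with an exact two-sided permutation test over libraries. With 4 libraries against 4 its smallest p is 0.0286, and after Benjamini-Hochberg adjustment over the 12 tests none passed. In Eμ-Myc against WT the groups did not overlap for 3 of the 4 pairs, each with p = 0.0286 (exact permutation test) and an adjusted p of 0.0857. Of single genes, 51.4% did not overlap in that comparison. No share was computed for ratios of other genes, so the count is no result about these pairs in particular. The log2 ratio of Bach2 over Bcl6 went from -1.34 ± 0.64 in WT to 0.67 ± 0.58 in Eμ-Myc, a difference of 2.01 (SD, n = 4). Taken singly, Bcl6 changed by -2.10 and Bach2 by -0.09, so this difference mostly restates the fall of Bcl6. The log2 ratio of Irf4 over Irf8 went from -2.30 ± 0.30 to -1.37 ± 0.39, a difference of 0.94. That of Pax5 over Ebf1 went from -2.23 ± 0.21 to -2.60 ± 0.18, a difference of -0.37 (SD, n = 4). The log2 ratio of Ikzf1 over Ikzf3 was 3.48 ± 0.43 for WT, 3.604 ± 0.35 for Eμ-Myc and 3.59 ± 0.36 for the knockout group, with differences smaller than the spread. Compared with WT, the knockout group had Irf4 over Irf8 higher by 1.18 without overlap (p = 0.0286, exact permutation test, adjusted p 0.0857). Bach2 over Bcl6 was higher by 2.72 (p = 0.0571, exact permutation test, adjusted p 0.137), and its knockout libraries 1 to 4 held -0.92, -0.22, 3.13 and 3.56. Between the knockout and Eμ-Myc groups the differences were 0.71 for Bach2 over Bcl6, 0.24 for Irf4 over Irf8, 0.18 for Pax5 over Ebf1 and -0.02 for Ikzf1 over Ikzf3, with exact permutation p from 0.257 to 0.971.

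**Figure D4:**
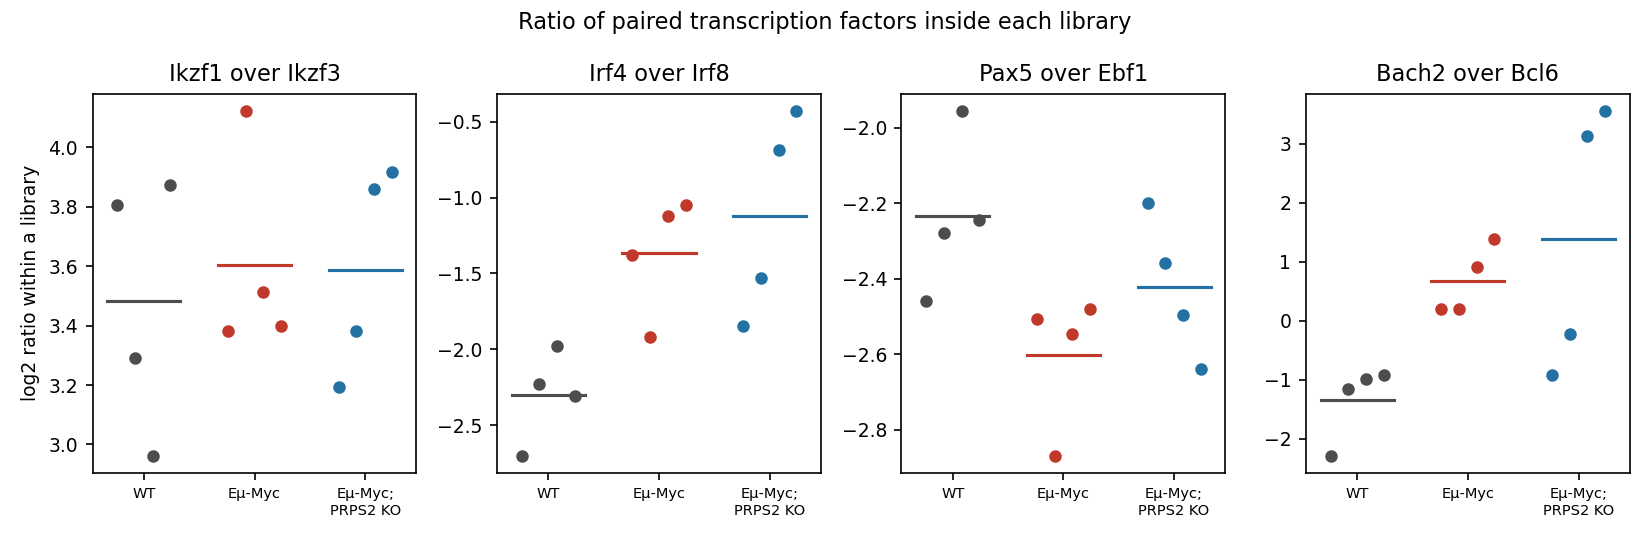
log2 ratio of 2 factors inside each library (points; libraries 1 to 4 from left to right, lines are group means) for 4 pairs in WT, Eμ-Myc and Eμ-Myc; PRPS2 KO. The vertical axes differ between panels and do not start at 0. Bach2 over Bcl6 and Irf4 over Irf8 are higher in all Eμ-Myc libraries than in all WT libraries, and knockout libraries 3 and 4 hold the highest values of both.

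The gene outside the 10 with the most similar profile over the 12 libraries is given for 9 of the factors, as measured by the root mean square difference of centred log2 profiles. It was Ralgps2 for Pax5 (0.0838 log2 units), Cnn3 for Ebf1 (0.112), Blmh for Tcf3 (0.0866), Cnst for Ikzf1 (0.0478) and Chd9 for Ikzf3 (0.123). It was Ms4a1 for Spib (0.0933), Mtss1 for Irf4 (0.134), Sbk1 for Bach2 (0.130) and Alcam for Bcl6 (0.20). Profiles with a small range give small differences: Ikzf1 spanned 0.78 log2 units over the 12 libraries and Bcl6 5.12. Among the 10 factors themselves Pax5 and Spib were the closest pair, at 0.145, followed by Pax5 and Bach2 at 0.151, and Bcl6 was the most distant, at 1.23 from its nearest factor, Irf8.

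Genes that work with or below these factors were taken from lists. The counts for Eμ-Myc against WT are to be read against the 55.1% of all genes called, 30.4% higher and 24.7% lower, and the median of -0.01. Of 14 B-cell genes listed as targets of Pax5 and Ebf1, 7 were called lower and 0 higher, with a median log2 fold change of -0.43. The share called in either direction lay near that background, but every call was lower, where 24.7% of all genes were lower and 30.4% higher. Fcer2a, which encodes the IgE receptor CD23, had -2.58, Cr2, the complement receptor CD21, -2.47 and Cd40 -1.13 (limma adjusted p 1.31e-04, 4.53e-04 and 0.00142). Cd79a and Cd79b were not called, at -0.04 and 0.09. The list thus held both genes that fell and genes within the spread, while Pax5 and Ebf1 themselves did not pass. The knockout comparison with WT called 3 of 14, all lower, against 29.3% of all genes called and 9.60% lower, namely Cd40 (-1.69), Bank1 (-1.22) and Cd22 (-0.92), with adjusted p of 0.0388, 0.0438 and 0.0468.

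Of 28 other transcription factors of B cells, 20 were called in Eμ-Myc against WT, 3 higher and 17 lower, with a median of -0.62. Sox4 (2.47) and Myb (1.62), both factors of early B-cell stages, rose, and the NF-κB subunit gene Relb fell (-1.46), with limma adjusted p of 3.8e-06, 6.16e-05 and 7.7e-05. Of the 4 Id genes, whose proteins bind E2A and block it from DNA, 3 were tested. Id2 fell (-0.78, limma adjusted p 0.0170), and Id3 had 0.58 (0.0514) and Id1 -0.79 (0.369). These values stand beside the increase of Tcf3 as a description only.

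Of 9 germinal centre genes 7 were called in Eμ-Myc against WT, 1 higher and 6 lower, beside the fall of Bcl6. Rgs13 averaged 9.27 in WT and 0.440 in Eμ-Myc (log2 fold change -3.28, limma adjusted p 9.06e-05), and Bcl7a rose from 38.7 to 157 (2.03, adjusted p 1.37e-05). The Eμ-Myc mean of Rgs13 lay below the pseudocount of 0.5, so the size of its fitted change depends on it. Of 10 plasma cell genes 4 were called higher and 3 lower. Fkbp11 (3.13), Creld2 (0.64) and Mzb1 (1.30), genes of protein folding and secretion, rose (limma adjusted p 3.16e-06, 4.92e-04 and 0.00178). Prdm1, which encodes the plasma cell regulator Blimp-1 and was named here after its value was seen, was at 4.40 in WT and 1.81 in Eμ-Myc (-1.08, adjusted p 0.00301).

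Of 11 early B-cell genes tested, 5 were called higher and 3 lower in Eμ-Myc against WT. Rag2 went from 0.335 to 9.07, Rag1 from 2.92 to 26.6, and Vpreb3 from 436 to 1440.3, with log2 fold changes of 3.53, 3.01 and 1.80 (limma adjusted p 2.5e-06, 2.4e-05 and 7.19e-04). The genes called lower were Il7r (-2.39), Flt3 (-0.89) and Kit (-0.68), with limma adjusted p of 0.00566, 0.00281 and 0.0100. Il7r ran from 46.4 to 378 among the WT libraries, an 8.14-fold span, against 1.77-fold for Flt3 and 1.51-fold for Kit. The T-cell markers Cd8a, Cd8b1 and Thy1 spanned 3.20-fold, 5.65-fold and 5.98-fold there. The part of T cells in the Il7r values was not tested. The WT mean of Rag2 lay below the pseudocount of 0.5, and its fitted change is smaller than the 27.1-fold ratio of the means. Of 17 genes of corepressor complexes, with which Bcl6, Bach2 and the Ikaros proteins repress their targets, 7 were called higher and 2 lower. The share called in either direction was close to the 55.1% of all genes, of which 30.4% were higher and 24.7% lower. Rbbp7 (1.15), Rbbp4 (1.13) and Hdac2 (1.05) had the smallest p. All 15 T-cell markers and all 10 NK-cell markers were called lower, against 1 of 15 myeloid, 5 of 11 dendritic-cell and 1 of 12 erythroid and platelet markers, so the T-cell and NK-cell signal moved with the comparison. The smallest p were those of Cd8b1 (-3.50), Cd8a (-2.04) and Thy1 (-2.92) among T-cell markers and of Eomes (-2.58), Klrd1 (-2.16) and Prf1 (-2.41) among NK-cell markers. Among dendritic-cell markers they were those of Siglech (-2.11), Cd209a (-1.38) and Ccr9 (-2.18), among myeloid markers Cebpa (-1.20), with Lyz2 (-0.92) and Csf3r (-1.41) not called, and among erythroid and platelet markers Itga2b (-1.20), with Klf1 (1.09) not called.

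Of the same lists, the knockout group against WT gave 2 called higher and 8 lower among the 28 other B-cell factors, 1 and 3 among 9 germinal centre genes, 3 and 1 among 10 plasma cell genes, 5 and 0 among 11 early B-cell genes and 6 and 0 among 17 corepressor genes, where 29.3% of all genes were called (19.7% higher and 9.60% lower). Sox4 (2.06), Myb (1.65) and the germinal centre factor gene Mef2b (-2.65) had the smallest p among the other B-cell factors, with limma adjusted p of 0.00933, 0.0106 and 0.0174. Bcl7a (2.01) and Rgs13 (-3.45) led the germinal centre genes, Fkbp11 (2.86), Mzb1 (1.08) and Creld2 (0.44) the plasma cell genes, Rag2 (2.92), Igll1 (2.10) and Rag1 (2.26) the early B-cell genes, and Rbbp4 (1.00), Rbbp7 (1.14) and Hdac2 (1.08) the corepressor genes, all called. No Id gene was called, with Id2 at -1.30, Id1 at -1.78 and Id3 at 0.24. No T-cell, NK-cell, myeloid or dendritic-cell marker was called, although the medians of the first 2 lists were -3.12 and -2.47, and 4 of 12 erythroid and platelet markers were lower, led by Itga2b (-2.16), Pf4 (-2.38) and Ppbp (-2.002).

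Between the knockout and Eμ-Myc groups no gene of any list was called by limma, each having an adjusted p of 1.00. The smallest unadjusted p among genes of the B-cell programme was that of Rag2 (log2 fold change -0.61, limma p 0.00594), whose libraries did not overlap between the groups. Cd79b (-0.30, limma p 0.0458), which encodes a chain of the B-cell receptor complex, and Tnfrsf17 (-1.55, limma p 0.0387), which encodes the plasma cell receptor BCMA, followed. The leading genes of the other lists were Lef1 (0.53) among the B-cell factors, Id3 (-0.35) among the Id genes, Gcsam (-0.88) among germinal centre genes and Ncor1 (0.20) among corepressor genes, with limma p from 0.0826 to 0.164. Among lists of other cells, the erythroid and platelet markers Pf4 (-1.50), Ppbp (-1.06) and Gp9 (-0.85) had limma p of 0.0259, 0.0373 and 0.0478, and all 12 genes of that list and all 15 myeloid markers had log2 fold changes below 0. Below 0 were also all 10 plasma cell genes, 13 of 14 Pax5 and Ebf1 targets and 10 of 11 dendritic-cell markers. It was 6 of the 10 factors, 8 of 17 corepressor genes, 15 of 27 other B-cell factors and 3 of 3 Id genes. It was also 9 of 11 early B-cell genes, 6 of 8 germinal centre genes, 10 of 15 T-cell markers and 8 of 10 NK-cell markers. The median of all genes tested was -0.03. No share of all genes below 0 is given, so these counts are no result about the lists. The signs join unlike libraries: the myeloid sums of knockout libraries 1 to 4 were 18164, 13383, 3366 and 1642.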

How the data were processed

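RNA of splenic B cells was made into directional libraries, per the labels' protocols. Each deposited file lists, for a single library, gene symbols and their mean coverage, a signal that the authors rounded to 1 decimal. The submitters' processing notes name mm10, DESeq and R 4.3.3; the aligner, the counting step and the annotation are not given in the sources used here, nor whether counting used strand. How many reads lie behind a value is unknown, so precision was taken from the spread between libraries, and p-values measure only that spread.

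Libraries were scaled by unweighted trimmed means of log ratios (30% of ratios and 5% of means trimmed at each end). A gene was tested where 4 or more of the 8 libraries reached a scaled coverage of 1, as all 10 factors did. limma 3.58.1 in R 4.3.3 used a trended prior and robust empirical Bayes, per comparison of 8 libraries, on log2 of scaled coverage with a pseudocount of 0.5, the scale of all fold changes. Benjamini-Hochberg adjustment ran over all genes tested, two-sided, with a threshold of 0.05. The method was tested on simulated data. Tables and figures used Python 3.11.15 and matplotlib 3.10.9. Gene positions are from GENCODE vM21 (GRCm38).

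The factors and lists were chosen with earlier results of these data known. The rule for names was all 10 factors, Prps2 and Myc, the closest profile of each factor and, from each list and comparison, the 3 genes with the smallest p. Shorter form was used for the 4 lists of other cells with no call in the knockout comparison with WT, and for most lists in that with Eμ-Myc. Cd79a, Cd22 and Prdm1 were named beyond the rule, and some genes that it names are not reported here. Replicate numbers 1 to 4 are shared between groups. For the knockout and Eμ-Myc groups, the deviations of libraries with the same number correlated at 0.638, 0.187, 0.243 and 0.596, each over 0.1. A blocked alternative therefore treated them as pairs. Libraries with different numbers were not compared in this way, so these values do not show that the libraries were pairs.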

Additional observations from a re-analysis of the deposited data

Results flagged for a closer look

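Groups of 4 libraries were screened for a library far from the other 3 by Dixon's criterion, which chance passes in about 1 of 20 groups, and 2 of the 42 groups examined passed. Ikzf1 stood at 894 (scaled coverage) in library 2 of Eμ-Myc, far below the other 3 Eμ-Myc libraries, with a gap to the nearest of them of 0.872 of the group's range. The log2 ratio of Pax5 over Ebf1 was -2.87 in the same library, the lowest of its group, and passed the criterion narrowly.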

How the results depend on the processing

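The count of factors called in Eμ-Myc against WT was 3, and it was 1 with all 12 libraries in one fit (42.9% of all genes called), 2 with scaling to the 5 B-cell genes (30.3%), 4 with total coverage scaling (57.4%) and with library quality weights (69.2%), 6 without WT libraries 1 and 4 (50.7%), and 2 to 3 with 1 library left out (46.0% to 54.7%). Between the knockout and Eμ-Myc groups the count of 0 became 5 with library quality weights, under which 59.4% of all genes were called, and was 0 with each library left out. In the knockout group against WT the count of 1 became 2 with median-of-ratios scaling (29.9% of all genes called), with a filter of 10 in every library (38.9%) and with a pseudocount of 2 (30.4%), 3 with all 12 libraries in one fit (47.1%), and 5 with library quality weights (82.8%). It was 0 without knockout libraries 3 and 4 (10.6%) or without WT libraries 1 and 4 (0.0323%, 4 genes), and 0 to 3 with 1 library left out (4.78% to 53.2%). The cause was not tested. With the replicate block the counts of factors were 3, 0 and 1, as without it, and over all genes 7184, 1 and 1863 were called against 7016, 1 and 3716. In every comparison the block rests on a shared number only. Against WT, correlations between deviations of same-numbered libraries ran from -0.0978 to 0.251 (Eμ-Myc) and from -0.408 to 0.391 (knockout group).

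The share of all genes called in Eμ-Myc against WT was 24.1% higher and 33.3% lower with total coverage scaling, and 22.9% and 7.39% with scaling to the 5 B-cell genes, against 30.4% and 24.7%. Directions turned for values that were not called, except Tcf3 with library quality weights in the knockout group against Eμ-Myc, which was called at 0.17 (limma adjusted p 0.0432). Scaled to the 5 B-cell genes, which shifted the median of all genes by 0.19, 0.18 and 0.37, Eμ-Myc against WT gave 0.0846 for Pax5 and 0.10 for Bach2. The knockout group against Eμ-Myc gave 0.14 for Pax5 and 0.0539 for Tcf3, and against WT 0.23 for Pax5, 0.31 for Ikzf1, 0.20 for Ikzf3 and 0.28 for Bach2. Total coverage scaling, with shifts of -0.18 and -0.15 in the comparisons with WT, gave -0.11 for Ebf1 in the knockout group against WT. Library quality weights gave -0.0090 for Ebf1 in Eμ-Myc against WT, 0.028 for Ebf1, 0.17 for Tcf3 and -0.17 for Ikzf3 against Eμ-Myc in the knockout group, and 0.0746 for Ikzf1 against WT. Without WT libraries 1 and 4, Ebf1 and Irf4 were -0.15 and -0.0882 in Eμ-Myc against WT and -0.36 and -0.075 in the knockout group against WT. Without knockout libraries 3 and 4, Irf4 was -0.14, Irf8 0.18, Bach2 -0.10, Bcl6 1.15 and Myc -0.46 against Eμ-Myc, and Ebf1 -0.13 and Ikzf3 0.0367 against WT. The settings that leave out 2 libraries and the scaling to 5 B-cell genes were chosen after seeing the data.

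With 1 library left out, directions turned within these ranges of log2 fold change. In Eμ-Myc against WT they were -0.29 to 0.0681 for Pax5, -0.38 to 0.0384 for Spib and -0.29 to 0.0546 for Bach2. For the knockout against the Eμ-Myc group they were -0.10 to 0.0094 for Pax5, -0.23 to 0.0228 for Tcf3, -0.0645 to 0.33 for Ikzf3, -0.11 to 0.11 for Irf4, -0.0694 to 0.0999 for Bach2 and -0.0867 to 0.44 for Myc. Against WT they were -0.32 to 0.0333 for Pax5, -0.12 to 0.24 for Ebf1, -0.11 to 0.0032 for Ikzf1, -0.32 to 0.0107 for Ikzf3 and -0.29 to 0.0566 for Bach2. Bcl6 has no value under the filter of 10 in either knockout comparison. Since read depth is unknown, counting error at low levels such as those of Bcl6 in knockout libraries 3 and 4 could not be given.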
